A study of Mus musculus with 23 samples.

Results

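Fam76b, Spink8, Nkx6-2, Hunk, Brme1, Dact2, Pla2g4e and Usp2 are 8 mouse genes whose brain transcript levels were higher in wild-type (WT) mice that ate an inhibitor of the colony-stimulating factor 1 receptor (CSF1R) than in WT mice on control chow. They were listed by symbol from 22310 named genes, and all 8 were among the 16209 genes with enough counts to be tested. Spink8, Pla2g4e and Usp2 were listed because they passed the threshold as higher with PLX3397, and Fam76b, Nkx6-2, Hunk, Brme1 and Dact2 because they passed it as higher with PLX5622. Those WT values chose the genes, so they are given here as a description and carry no p-value. A further question was whether the same genes also stood higher in mice that carried the Csf1R-G793A substitution and never ate an inhibitor.

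RNA-seq libraries were made from brain tissue of C57BL/6J mice after 14 days on their diet. The groups were Csf1R-G793A mice on chow with PLX3397 (290 mg/kg), Csf1R-G793A mice on chow with PLX5622 (1200 mg/kg), WT mice on each of those chows, Csf1R-G793A mice on control chow (G793A controls), and WT mice on control chow (WT controls). Each group had 4 libraries except the WT controls, which had 3, so there were 23 libraries. Per the series' design text, the mutant was used to see whether it prevents the effects of the inhibitors. The labels give no brain region, age, sex or sequencing batch, and do not say that each library came from its own mouse. The p-values therefore measure the spread between these libraries, which may be partly technical. Libraries were stranded and selected with oligo-dT beads, and each held between 26.3 M and 48.2 M (mega-counts) of estimated counts in total.

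Microglia, the resident macrophages of the brain, need signals through the CSF1R kinase to survive. PLX3397 and PLX5622 are small molecules that inhibit this kinase and are widely used to deplete microglia. A substitution in the receptor that keeps it active in the presence of such inhibitors lets microglia persist. None of the 8 genes belongs to the usual microglial markers, and they do not form a pathway. Nkx6-2 is a homeodomain transcription factor of the oligodendrocyte lineage, Fam76b is a protein of nuclear speckles, and Brme1 is a meiotic recombination factor that recruits recombinases to DNA breaks. Hunk is a kinase related to AMPK, and Dact2 binds Dishevelled, a transducer of Wnt signals. Usp2 is a deubiquitinase whose transcript follows the circadian clock in many tissues. Pla2g4e is a cytosolic phospholipase A2 family member that makes N-acyl phosphatidylethanolamines, and Spink8 is a Kazal-type inhibitor of serine peptidases whose transcript marks pyramidal neurons of hippocampal area CA1.

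The 8 genes were listed for standing higher in WT mice on an inhibitor, and whether they share a control was not tested. The promoters of 4 of the genes are shown as a description. They run from 250 bases before to 50 bases after the annotated start and come from RefSeq on build GRCm38.p6, which is not the build of the count table. Capitals mark CCAAT, written ATTGG where it lies on the opposite strand. They also mark the motif TGACGT, searched on both strands. The motif CACGTG, also searched, reads alike on both strands. No matches overlap each other here. Fam76b lies at chr9:13827466-13827765 on the plus strand.
Fam76b: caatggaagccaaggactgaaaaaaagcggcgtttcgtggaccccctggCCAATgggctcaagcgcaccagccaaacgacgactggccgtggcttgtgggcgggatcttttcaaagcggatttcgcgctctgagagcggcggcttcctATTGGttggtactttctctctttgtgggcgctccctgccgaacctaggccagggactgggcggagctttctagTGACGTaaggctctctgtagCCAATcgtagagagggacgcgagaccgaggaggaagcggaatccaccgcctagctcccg
Nkx6-2: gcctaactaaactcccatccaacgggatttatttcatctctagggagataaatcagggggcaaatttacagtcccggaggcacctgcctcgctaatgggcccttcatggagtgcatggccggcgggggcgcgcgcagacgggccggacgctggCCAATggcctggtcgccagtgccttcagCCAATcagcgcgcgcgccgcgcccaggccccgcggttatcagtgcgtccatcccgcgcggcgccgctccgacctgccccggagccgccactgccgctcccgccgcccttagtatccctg
Usp2: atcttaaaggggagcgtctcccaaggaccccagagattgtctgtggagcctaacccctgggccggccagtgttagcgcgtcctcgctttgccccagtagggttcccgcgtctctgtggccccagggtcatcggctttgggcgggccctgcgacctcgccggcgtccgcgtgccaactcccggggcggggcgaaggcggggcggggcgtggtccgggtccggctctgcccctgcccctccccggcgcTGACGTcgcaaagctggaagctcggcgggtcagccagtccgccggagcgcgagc
Pla2g4e: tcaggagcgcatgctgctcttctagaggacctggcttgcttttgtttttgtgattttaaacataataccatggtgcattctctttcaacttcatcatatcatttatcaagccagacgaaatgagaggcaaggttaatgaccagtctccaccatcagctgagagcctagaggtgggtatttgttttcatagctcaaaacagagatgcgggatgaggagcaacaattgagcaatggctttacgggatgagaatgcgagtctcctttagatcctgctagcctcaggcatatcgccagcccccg
The Nkx6-2 promoter lies at chr7:139582748-139583047 on the minus strand, the Usp2 promoter at chr9:44084670-44084969 on the plus strand and the Pla2g4e promoter at chr2:120245286-120245585 on the minus strand. Of the 8 genes, 7 had a promoter in the table, and Spink8 is named only. Brme1 was matched there under its older symbol 4930432K21Rik. CCAAT was found in 2 of the 7 promoters, those of Fam76b (3 copies) and Nkx6-2 (2 copies), and in 37.4% of all 32851 promoters of the same length. TGACGT was found in 2 of the 7, those of Fam76b and Usp2 (1 copy each), and in 7.51% of all promoters. CACGTG was in none of the 7 and in 7.15% of all. The Pla2g4e promoter had 7 CpG dinucleotides, which equals the median of all promoters, and the other 6 had 23 to 41. A count of 20 or more was found in 26.5% of all promoters. These matches describe letters in the window and were not tested against the values.

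The labels were first checked on Csf1r, which the microglia of these mice express. Csf1r averaged 74.4 ± 4.24 CPM (counts-per-million, SD, n = 4) in G793A mice on PLX3397, 71.6 ± 8.59 CPM (n = 4) in G793A mice on PLX5622, 23.3 ± 5.12 CPM (n = 4) in WT mice on PLX3397, 12.2 ± 4.56 CPM (n = 4) in WT mice on PLX5622, 81.4 ± 4.69 CPM (n = 4) in G793A controls and 93.8 ± 1.23 CPM (n = 3) in WT controls. The summed level of 15 microglial markers, none of which was at 0 in any library, followed it. Csf1r is itself among the 15, so the sum is not separate from it. The sum ranged from 338.3 to 418.9 CPM over the 8 libraries of G793A mice on an inhibitor, from 61.7 to 158.2 CPM over the 8 of WT mice on an inhibitor, from 402.3 to 508.5 CPM in G793A controls and from 468.9 to 504.5 CPM in WT controls. In bulk tissue, fewer cells of a type and less RNA per cell cannot be told apart. Some libraries stood apart by other tissue or by neuronal activity genes. Cbln3, a cerebellar granule cell gene, stood at 220.54 CPM in replicate 2 of G793A mice on PLX5622 and at 30.77 CPM in replicate 1 of WT mice on PLX5622, and 4 libraries had Npas4, an activity gene, at 139.29 CPM or more.

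The rule's own values are as follows. With PLX3397 in WT mice, 6 genes of all those tested passed as higher (0.0370% of 16209), against WT controls. The last inside the threshold was Spink8 (log2 fold change 1.12) and the first outside was Epc1 (0.24). This number was 2 without replicate 3 and 13 without replicate 2 of the WT controls, 3 without replicate 1 and 11 without replicate 3 of WT mice on PLX3397, and 28 with DESeq2. With PLX5622, 12 genes passed as higher (0.0740%). The last inside was Npy1r (0.33) and the first outside was Nek2 (0.91). Here the number was 3 without replicate 1 and 2 without replicate 3 of the WT controls, 21, 5 and 3 without replicates 1, 2 and 4 of WT mice on PLX5622, taken singly, and 27 with DESeq2. The number of genes that meet the rule thus depended on single libraries and on the tool. Of the 8 genes, 6 did not overlap between WT mice on PLX3397 and WT controls, against 4.94% of all genes tested, and 6 did not overlap between WT mice on PLX5622 and WT controls, against 3.68%. Nothing is read from these shares, because the genes were chosen on them.

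**Figure D1:**
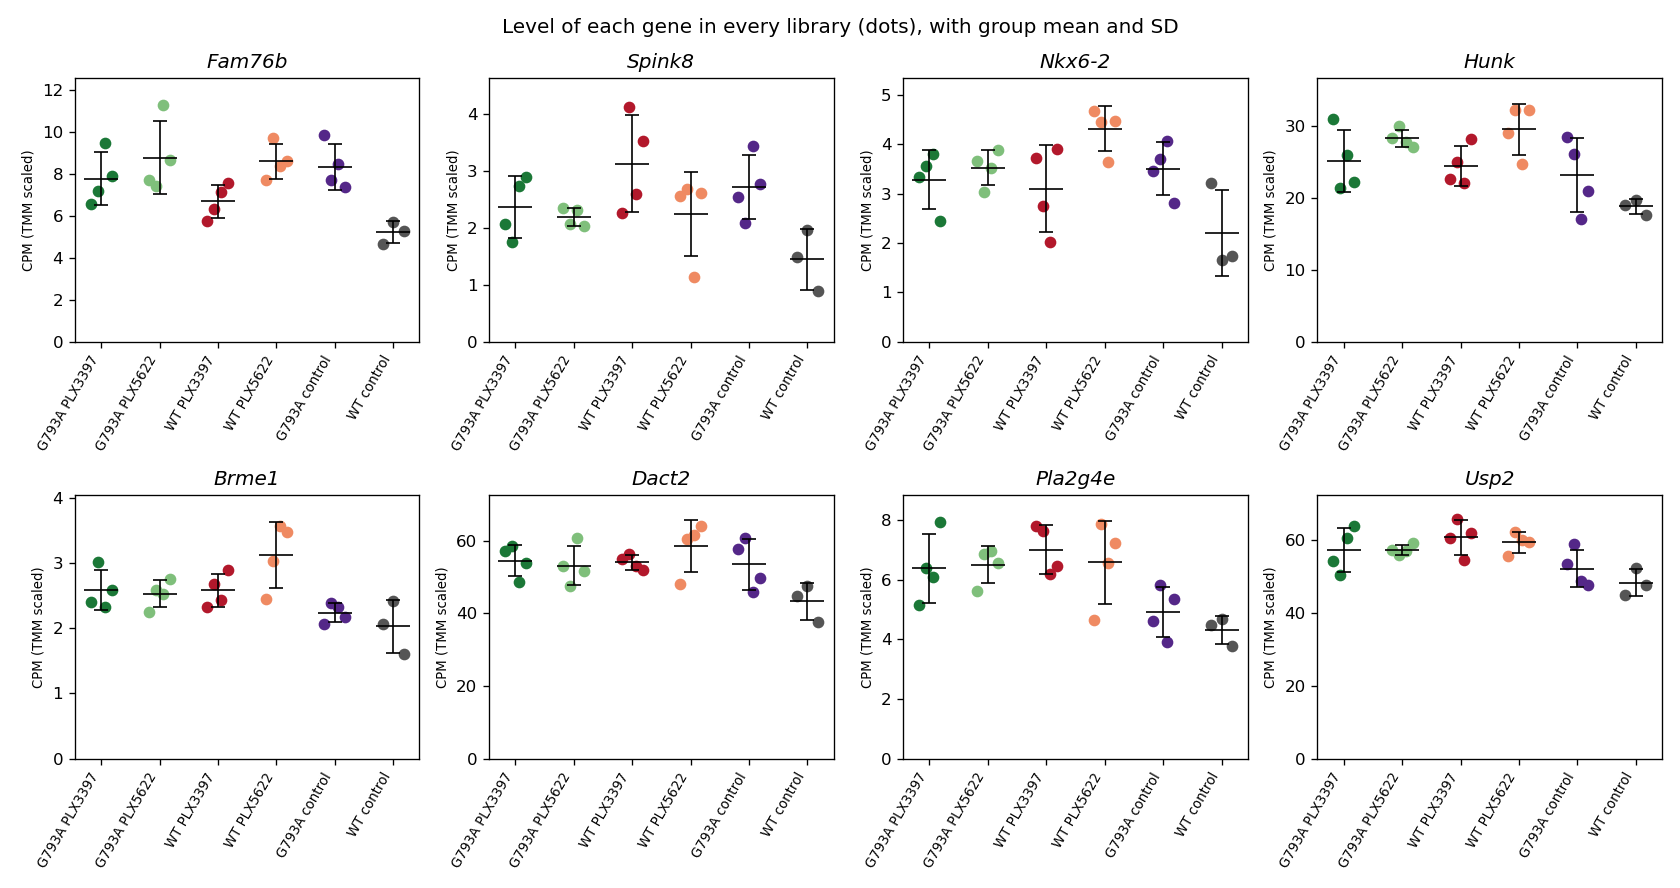
Levels of the 8 genes in every library, in CPM (counts-per-million, scaled by TMM) on the vertical axis, by group on the horizontal axis. Dots are libraries, the wide bar is the group mean and the whiskers are 1 SD, with n = 4 per group and n = 3 in WT controls, and the WT controls hold the lowest group mean in all 8 panels.

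Across the 6 groups, the WT controls had the lowest mean level of all 8 genes, which was so for 17.0% of all genes tested. The genes were chosen for standing above WT controls in 1 group, so this order is a description. When the 6 groups were ordered by mean, neighbouring groups overlapped in range in all but 2 places, and these were Fam76b between WT mice on PLX3397 and WT controls and Spink8 between G793A mice on PLX5622 and WT controls. The highest mean belonged to WT mice on PLX5622 for Nkx6-2, Hunk, Brme1 and Dact2, to WT mice on PLX3397 for Spink8, Pla2g4e and Usp2, and to G793A mice on PLX5622 for Fam76b.

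Comparing G793A controls with WT controls asks whether the same shift is present with no inhibitor in the chow. All 8 genes had a positive log2 fold change there, from 0.11 for Usp2 to 0.91 for Spink8, with a median of 0.31 against -0.01 over all genes tested. A positive value was found for 48.3% of all genes. None of the 8 passed the adjusted threshold, and nor did any other gene (0% of 16209). At an unadjusted p under 0.05, 5 of the 8 were higher (Fam76b, Spink8, Nkx6-2, Hunk and Dact2), against 5.90% of all genes, and 1803 genes reached it in either direction. The groups did not overlap for Fam76b and Spink8, against 2.71% of all genes. The 3 WT control libraries also stand in the contrasts that chose the genes, so the comparisons are not independent of each other. Choosing genes for standing above these libraries favours positive values and low p-values here. The shares of all genes are therefore no fair reference for the 8.

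**Figure D2:**
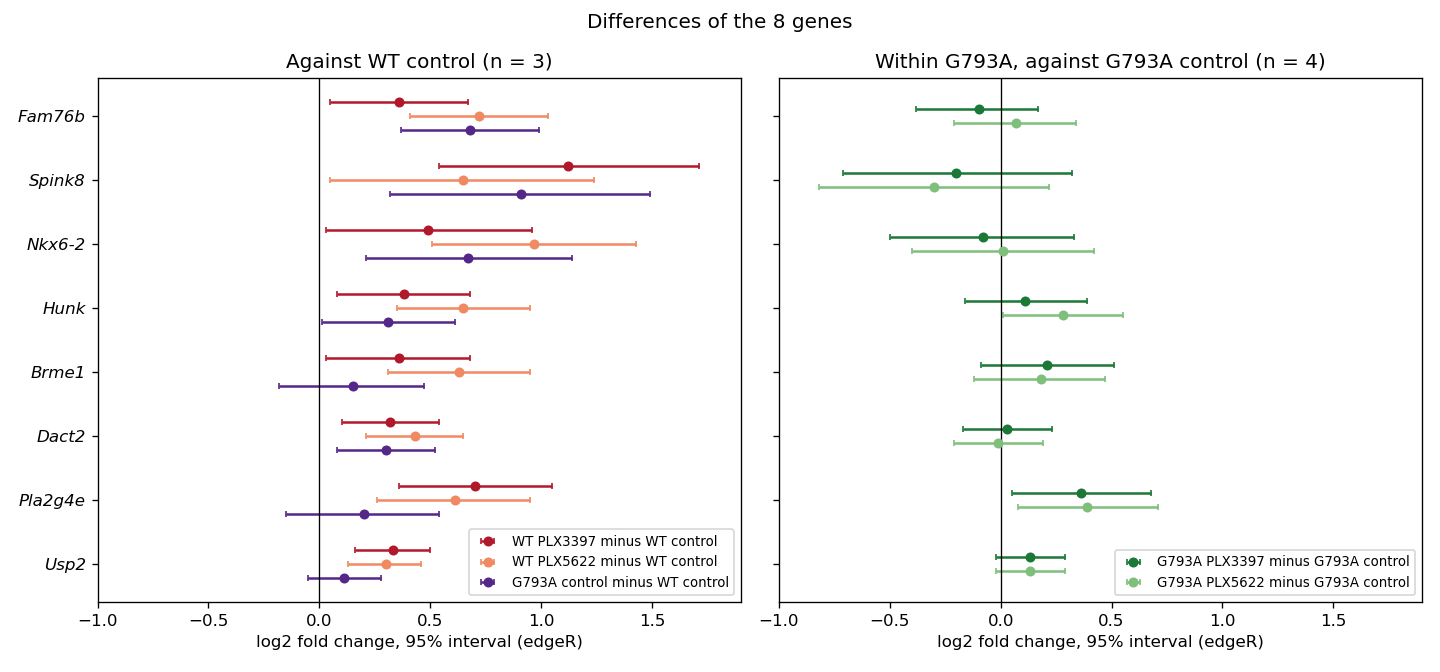
Log2 fold changes of the 8 genes (horizontal axis, dots) with 95% intervals from edgeR (bars). The left panel shows WT mice on PLX3397, WT mice on PLX5622 and G793A controls, each against the 3 WT controls, with all dots right of 0; the right panel shows G793A mice on each inhibitor against the 4 G793A controls, where dots run from -0.30 to 0.39.

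Within the G793A genotype, the groups compared held no library of the choice. The SE, intervals and p-values use a spread per gene estimated over all 23 libraries, those of the choice included. G793A mice on PLX3397 differed from G793A controls by a median of 0.07 over the 8 genes, against 0.00 over all genes, with 5 of 8 positive (51.0% of all genes were). None of the 8 passed the threshold, and 1 gene of all those tested did (0.00617%), which was Pdgfra, a receptor of oligodendrocyte precursors (log2 fold change -0.54 ± 0.08 SE, edgeR adjusted p = 0.00678). G793A mice on PLX5622 differed from G793A controls by a median of 0.10 over the 8 genes, with 6 of 8 positive (49.9% of all genes were), and no gene passed (0%), with 2639 at an unadjusted p under 0.05. In neither comparison were the groups apart for any of the 8 genes, as they were, in the higher direction, for 1.92% of all genes with PLX3397 and 2.55% with PLX5622. At an unadjusted p under 0.05, Pla2g4e was higher with PLX3397 (6.02% of all genes were), and Pla2g4e and Hunk were higher with PLX5622 (8.43% of all genes were). Whether an inhibitor acted differently in the genotypes was not tested for these genes, since the WT part of that test chose them.

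Among the nuclear factors, Fam76b was separated from the WT controls in every other group. Fam76b stood at 6.55, 7.21, 9.47 and 7.89 CPM in G793A mice on PLX3397 and at 7.73, 7.45, 11.3 and 8.67 CPM in G793A mice on PLX5622. It stood at 5.77, 6.31, 7.13 and 7.55 CPM in WT mice on PLX3397, at 7.71, 9.73, 8.37 and 8.60 CPM in WT mice on PLX5622, at 9.84, 7.73, 8.50 and 7.36 CPM in G793A controls and at 4.65, 5.70 and 5.30 CPM in WT controls. All 20 other libraries lay above the highest WT control, which was so for 9 of 16209 genes (0.0555%) and for no other of the 8. All 12 G793A libraries lay above it too, as for 0.228% of all genes. The WT controls and WT mice on PLX5622 chose Fam76b, so both shares are set in part by the choice. G793A controls were higher than WT controls by 0.68 ± 0.15 on the log2 scale (SE, 1.60-fold), with an edgeR adjusted p of 0.358. The difference was 0.72 with an adjusted p of 0.0375 when replicate 2 of the G793A controls was left out. Without that replicate 375 of 16190 genes passed, against 0 with all libraries. For comparison, the log2 fold change of Fam76b was 0.72 in WT mice on PLX5622 and 0.36 in WT mice on PLX3397, each against the same WT controls. Against G793A controls, Fam76b differed by -0.10 with PLX3397 (95% interval -0.38 to 0.17) and by 0.07 with PLX5622 (-0.21 to 0.34) in G793A mice, and the libraries were mixed. Set against G793A controls, so that genotype and diet both differ, WT mice on PLX3397 had a log2 fold change of -0.32 ± 0.13 (edgeR adjusted p = 0.129). That group did not choose Fam76b, Nkx6-2, Hunk, Brme1 or Dact2, and none of these 5 passed there, against 7.50% of all genes in either direction. Its paralog Fam76a, named after its values were seen, stood at 53.3, 51.7, 54.5, 52.6, 52.0 and 52.3 CPM as group means in G793A mice on PLX3397, G793A mice on PLX5622, WT mice on PLX3397, WT mice on PLX5622, G793A controls and WT controls. A list of 7 genes held that paralog and speckle proteins such as Son and Srrm2. None passed with either inhibitor in G793A mice or in G793A controls against WT controls, where 1, 0 and 0 of all genes passed. In G793A controls against WT controls all 7 were negative (median -0.08, against -0.01 over all genes), and 48.3% of all genes were positive.

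Nkx6-2 was low in 2 of the 3 WT controls. Nkx6-2 stood at 3.34, 3.57, 3.80 and 2.44 CPM in G793A mice on PLX3397 and at 3.67, 3.04, 3.52 and 3.88 CPM in G793A mice on PLX5622. It stood at 3.73, 2.76, 2.02 and 3.90 CPM in WT mice on PLX3397, at 4.68, 4.46, 3.65 and 4.47 CPM in WT mice on PLX5622, at 3.46, 3.70, 4.07 and 2.81 CPM in G793A controls and at 3.21, 1.66 and 1.73 CPM in WT controls. Replicate 1 of the WT controls lay inside the range of the G793A controls, and the others lay below every library of every other group. G793A controls were higher than WT controls by 0.67 ± 0.22 (log2, SE; edgeR adjusted p = 0.358), and the value was 1.04 without that replicate. The difference from WT controls was 0.49 in WT mice on PLX3397 and 0.97 in WT mice on PLX5622. Within G793A mice the difference from controls was -0.08 with PLX3397 (95% interval -0.50 to 0.33) and 0.01 with PLX5622 (-0.40 to 0.42). WT mice on PLX3397 differed from G793A controls by -0.18 ± 0.20 (edgeR adjusted p = 0.613). Of 14 myelin and mature oligodendrocyte genes, none passed in any of 5 comparisons, namely each inhibitor against the control of its genotype and G793A controls against WT controls, and their median was -0.03 in G793A controls against WT controls, -0.03 with PLX3397 in WT mice and -0.07 with PLX5622 in WT mice. Among 10 transcription factors of the lineage none passed either. In WT mice against WT controls, 3 of the 10 were positive with PLX3397 (median -0.09) and 5 with PLX5622 (median 0.01). In G793A controls against WT controls 6 of the 10 were positive, with a median of 0.08. Olig1 differed there by 0.16 ± 0.07 (edgeR adjusted p = 0.406) and Nkx2-2 by 0.13 ± 0.14 (adjusted p = 0.762). Zfp536, a zinc finger protein of that list, had the smallest p of the list, at -0.36 ± 0.08 (edgeR adjusted p = 0.358). All 8 markers of oligodendrocyte precursors were negative with PLX3397, with medians of -0.30 in WT and -0.31 in G793A mice. In each genotype 1 of them passed as lower. With PLX5622 their medians were -0.04 in WT and -0.03 in G793A mice, and none passed.

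Brme1 differed little between the control groups. Brme1 stood at 2.40, 3.01, 2.33 and 2.59 CPM in G793A mice on PLX3397 and at 2.25, 2.59, 2.52 and 2.75 CPM in G793A mice on PLX5622. It stood at 2.32, 2.68, 2.43 and 2.89 CPM in WT mice on PLX3397, at 2.45, 3.03, 3.56 and 3.47 CPM in WT mice on PLX5622, at 2.06, 2.38, 2.33 and 2.17 CPM in G793A controls and at 2.06, 2.41 and 1.61 CPM in WT controls. The G793A controls lay wholly inside the range of the WT controls, and all 4 WT libraries on PLX5622 lay above it. G793A controls differed from WT controls by 0.15 ± 0.16 (log2, SE; edgeR adjusted p = 0.764), and by 0.00 without replicate 3 of the WT controls. In WT mice it was 0.36 above WT controls on PLX3397 and 0.63 on PLX5622. Within G793A mice the difference from controls was 0.21 ± 0.14 with PLX3397 (edgeR adjusted p = 0.568) and 0.18 ± 0.14 with PLX5622 (adjusted p = 0.575), and 3 of 4 libraries lay above every G793A control on each diet. The value with PLX3397 was 0.08 without the libraries with high Npas4. Of 8 genes of the meiotic recombination machinery that work with Brme1, 6 were tested and none passed in those 5 comparisons. Its direct partner Hsf2bp averaged 0.286 CPM in G793A control libraries, against 0.139 CPM in those of WT controls (1.06 ± 0.51, edgeR adjusted p = 0.45).

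Hunk and Dact2 belong to signalling pathways. Hunk stood at 31.0, 21.4, 26.0 and 22.3 CPM in G793A mice on PLX3397 and at 28.3, 30.0, 27.8 and 27.1 CPM in G793A mice on PLX5622. It stood at 22.7, 25.0, 22.1 and 28.2 CPM in WT mice on PLX3397, at 29.1, 32.3, 24.7 and 32.2 CPM in WT mice on PLX5622, at 28.5, 26.2, 17.1 and 21.0 CPM in G793A controls and at 19.0, 19.8 and 17.7 CPM in WT controls. Replicate 3 of the G793A controls was the lowest of all 23 libraries, and the other 19 libraries outside the WT controls lay above all of them. G793A controls were higher than WT controls by 0.31 ± 0.14 (log2, SE; edgeR adjusted p = 0.431). Its values in WT mice were 0.38 above WT controls on PLX3397 and 0.65 on PLX5622 (log2). Within G793A mice Hunk differed from controls by 0.11 ± 0.13 with PLX3397 (edgeR adjusted p = 0.764) and by 0.28 ± 0.13 with PLX5622 (adjusted p = 0.293), where the 4 libraries lay close together and the controls were spread widely. Without the libraries with high Npas4, the value with PLX3397 was 0.29. WT mice on PLX3397 differed from G793A controls by 0.07 ± 0.13 (edgeR adjusted p = 0.773). Of 17 kinases related to AMPK, none passed in those 5 comparisons. Sik2, the member of that list with the smallest p, differed by -0.39 ± 0.11 in G793A controls against WT controls (edgeR adjusted p = 0.358).

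Dact2 stood at 57.2, 58.4, 48.6 and 53.9 CPM in G793A mice on PLX3397 and at 52.9, 47.5, 60.6 and 51.6 CPM in G793A mice on PLX5622. It stood at 54.9, 56.4, 52.9 and 51.8 CPM in WT mice on PLX3397, at 48.0, 60.5, 61.6 and 64.0 CPM in WT mice on PLX5622, at 57.7, 60.7, 45.8 and 49.6 CPM in G793A controls and at 44.8, 47.6 and 37.7 CPM in WT controls. Of the 20 other libraries, 18 lay above the highest WT control, and the exceptions were 1 G793A control and 1 library of G793A mice on PLX5622. G793A controls were higher than WT controls by 0.30 ± 0.11 (log2, SE; edgeR adjusted p = 0.358), close to the 0.32 of WT mice on PLX3397 and below the 0.43 of WT mice on PLX5622. Within G793A mice the difference from controls was 0.03 with PLX3397 (95% interval -0.17 to 0.23) and -0.01 with PLX5622 (-0.21 to 0.19), and WT mice on PLX3397 differed from G793A controls by 0.01 ± 0.10 (edgeR adjusted p = 0.95). Of 16 Dact family members and Wnt targets and regulators, none passed there either. Between the control groups, 11 of these 16 were positive and 5 negative, with a median of 0.01, against -0.01 over all genes. The family member Dact3 differed by 0.25 ± 0.09 in G793A controls against WT controls (edgeR adjusted p = 0.363). Nkd1, a feedback inhibitor that also binds Dishevelled, differed by 0.17 ± 0.08 (adjusted p = 0.46). The family member Dact1 instead had a lower mean in G793A controls (6.43 CPM) than in WT controls (7.25 CPM).

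The enzymes Usp2 and Pla2g4e had positive differences from G793A controls with each inhibitor in G793A mice, as did Hunk and Brme1. In WT mice, where the genes were chosen, all 8 were positive with each inhibitor. Between the controls, the differences of Usp2 and Pla2g4e were small. Usp2 stood at 54.3, 50.5, 60.4 and 63.9 CPM in G793A mice on PLX3397 and at 57.2, 55.9, 56.9 and 59.2 CPM in G793A mice on PLX5622. It stood at 60.5, 65.8, 54.5 and 61.9 CPM in WT mice on PLX3397, at 55.6, 62.3, 60.1 and 59.3 CPM in WT mice on PLX5622, at 53.3, 59.0, 48.7 and 47.6 CPM in G793A controls and at 44.9, 52.4 and 47.6 CPM in WT controls. The 8 WT libraries on an inhibitor lay above all WT controls, whereas the G793A controls were spread over and above the range of the WT controls. G793A controls differed from WT controls by 0.11 ± 0.08 (log2, SE; edgeR adjusted p = 0.613), against 0.33 for WT mice on PLX3397 and 0.30 for WT mice on PLX5622. Within G793A mice the difference from controls was 0.13 ± 0.07 with PLX3397 (edgeR adjusted p = 0.491) and 0.13 ± 0.07 with PLX5622 (adjusted p = 0.374). Set against G793A controls, with genotype and diet both different, WT mice on PLX5622 differed by 0.18 ± 0.07 (edgeR adjusted p = 0.164). The value was 0.25 (adjusted p = 0.0311) without replicate 2 of the G793A controls. Without that replicate 2027 of 16190 genes passed in either direction, against 424 of 16209 with all libraries. WT mice on PLX5622 did not choose Usp2, Pla2g4e or Spink8. None of these 3 passed against G793A controls with all libraries, against 2.62% of all genes in either direction. Of 18 other ubiquitin-specific proteases none passed in the same 5 comparisons. In G793A mice, 14 of them were positive and 4 negative with PLX3397, and 15 positive and 3 negative with PLX5622. Their median was 0.08 with each inhibitor there. In G793A controls against WT controls 2 were positive and 16 negative, with a median of -0.06. In WT mice 14 were positive with PLX3397 and 9 with PLX5622. The list of clock genes and clock outputs held 22 symbols, of which Bmal1 is another name of Arntl. All 21 genes were tested and 1 passed as higher, in WT mice on PLX3397 against WT controls. It was Dbp, named after its value was seen, at a mean of 53.3 CPM in WT mice on PLX3397 and 38.7 CPM in WT controls. Of the 21, 16 were positive with PLX3397 in WT mice (median 0.11) and 15 in G793A mice (0.07). With PLX5622, 7 were positive in WT mice (-0.03) and 12 in G793A mice (0.04). In G793A controls against WT controls 5 were positive (-0.06). Ciart, a repressor within the clock, differed by 0.78 ± 0.19 with PLX3397 in G793A mice (edgeR adjusted p = 0.287). The mean of Ciart was 11.8 CPM in WT mice on PLX3397 and 6.99 CPM in WT controls.

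Pla2g4e stood at 5.15, 6.40, 6.08 and 7.93 CPM in G793A mice on PLX3397 and at 5.61, 6.87, 6.97 and 6.57 CPM in G793A mice on PLX5622. It stood at 7.79, 7.62, 6.19 and 6.45 CPM in WT mice on PLX3397, at 4.66, 7.86, 6.55 and 7.25 CPM in WT mice on PLX5622, at 4.61, 5.83, 3.91 and 5.34 CPM in G793A controls and at 4.48, 4.69 and 3.79 CPM in WT controls. On each inhibitor, 3 of the 4 G793A libraries lay above every G793A control. The G793A inhibitor groups differed from G793A controls by 0.36 ± 0.15 with PLX3397 (log2, SE, 95% interval 0.05 to 0.68, edgeR adjusted p = 0.391) and by 0.39 ± 0.15 with PLX5622 (0.08 to 0.71, adjusted p = 0.208), the largest values of the 8 genes in both comparisons. Without the libraries with high Npas4, which include replicates 2 and 4 of G793A mice on PLX3397, the first value was 0.19. G793A controls differed from WT controls by 0.20 ± 0.17 (edgeR adjusted p = 0.687), and WT mice were higher than WT controls by 0.70 on PLX3397 and 0.61 on PLX5622. WT mice on PLX5622 differed from G793A controls by 0.41 ± 0.15 (edgeR adjusted p = 0.13). That adjusted p was 0.0452 without replicate 2 of the G793A controls (log2 fold change 0.51), where 2027 genes passed, against 424 with all libraries. It was 0.048 without replicate 1 of WT mice on PLX5622 (0.55), the library with cerebellar and pituitary transcripts, where 312 genes passed. Of 10 phospholipases of this group and enzymes of N-acyl ethanolamine metabolism, 7 were tested and 1 passed in the 5 comparisons. It was Pla2g4a, the arachidonate-releasing member of the group, which fell to a mean of 3.45 CPM in WT mice on PLX3397, against 5.25 CPM in WT controls (log2 fold change -0.61 ± 0.15, edgeR adjusted p = 0.0386), the opposite sign to Pla2g4e.

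Spink8 had the largest shift of the 8 genes in G793A controls and the fewest reads. Spink8 stood at 2.08, 1.76, 2.74 and 2.90 CPM in G793A mice on PLX3397 and at 2.35, 2.08, 2.31 and 2.04 CPM in G793A mice on PLX5622. It stood at 2.26, 4.13, 2.60 and 3.54 CPM in WT mice on PLX3397, at 2.56, 2.69, 1.13 and 2.61 CPM in WT mice on PLX5622, at 2.55, 2.09, 3.45 and 2.78 CPM in G793A controls and at 1.49, 1.96 and 0.891 CPM in WT controls. Its lowest estimated count was 36.0, in replicate 3 of the WT controls and in replicate 3 of WT mice on PLX5622. Of the 20 libraries outside the WT controls, 18 lay above all 3 WT controls, and these included all 4 G793A controls. G793A controls were higher than WT controls by 0.91 ± 0.28 (log2, SE, 1.88-fold; edgeR adjusted p = 0.358), between the 1.12 of WT mice on PLX3397 and the 0.65 of WT mice on PLX5622. Within G793A mice the differences from controls were negative, at -0.20 with PLX3397 (95% interval -0.71 to 0.32) and -0.30 with PLX5622 (-0.82 to 0.22). WT mice on PLX5622 differed from G793A controls by -0.26 ± 0.25 (edgeR adjusted p = 0.613). The summed level of 8 other CA1 markers ranged from 426.0 to 462.6 CPM in G793A mice on PLX3397, 386.5 to 481.3 CPM in G793A mice on PLX5622, 447.6 to 515.5 CPM in WT mice on PLX3397, 429.1 to 486.6 CPM in WT mice on PLX5622, 372.8 to 468.2 CPM in G793A controls and 374.2 to 436.8 CPM in WT controls. The sums in WT mice on PLX3397 thus lay above those of WT controls, and their part in the Spink8 values was not tested. None of the 8 markers passed in the 5 comparisons, and their median was -0.02 in G793A controls against WT controls, 0.14 in WT mice on PLX3397 and 0.19 in WT mice on PLX5622 against WT controls, with 7 of the 8 positive on each inhibitor. Of 11 other symbols listed for genes with Kazal-type domains, 4 were tested and none passed.

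**Figure D3:**
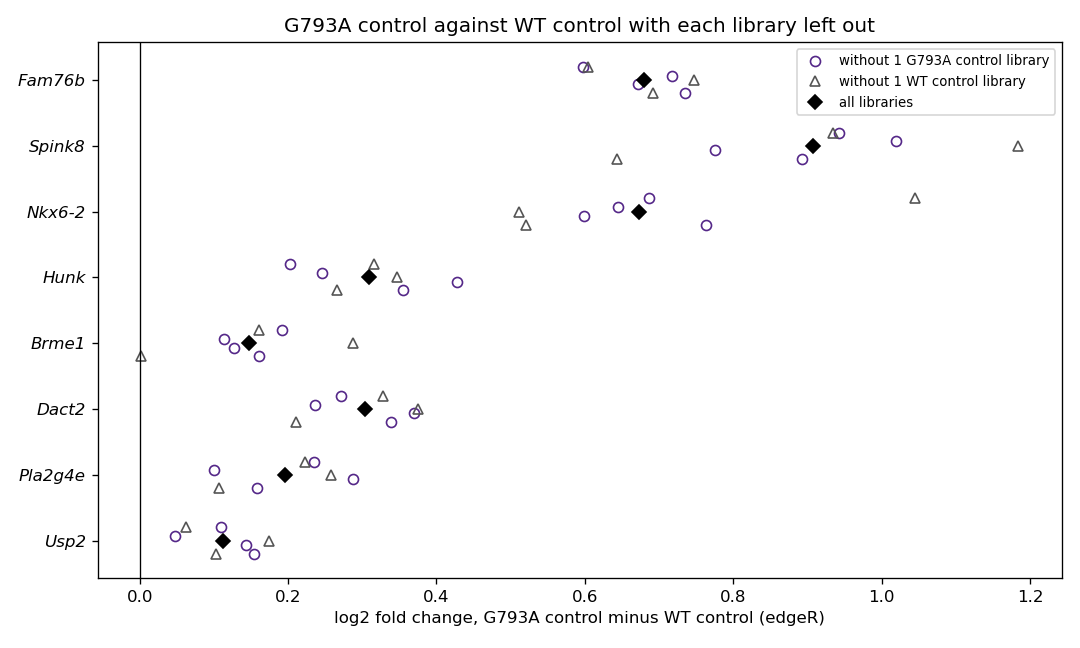
Log2 fold change of each of the 8 genes in G793A controls against WT controls (horizontal axis) with all libraries (diamonds) and with each G793A control (circles) or WT control (triangles) left out in turn. All points lie at or right of 0, and Spink8 and Nkx6-2 spread most, from 0.64 to 1.18 and from 0.51 to 1.04.

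The 3 differences from WT controls are set side by side. For Fam76b, Spink8 and Nkx6-2, the log2 fold change of G793A controls (0.68, 0.91 and 0.67) lay between those of WT mice on PLX3397 and WT mice on PLX5622. For Dact2 (0.30), Hunk (0.31), Pla2g4e (0.20), Brme1 (0.15) and Usp2 (0.11) it lay below both, though for Dact2 and Hunk it was below the value on PLX3397 by less than its SE. The WT values were chosen for being high and share the WT controls, so this order is partly set by the choice and no test of it is given. Leaving out each control library in turn changed the sign of none of the 8 genes in this comparison. G793A control libraries differed in how their log2 CPM changed per doubling of transcript length, with slopes of -0.047, 0.0092, -0.1036 and -0.0367, against -0.0344, 0.0313 and 0.0297 in WT controls. With a smooth trend along length and GC content removed from each library, the 8 log2 fold changes of G793A controls against WT controls ran from 0.10 for Usp2 to 0.85 for Spink8.

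Over the 12 G793A libraries, the 28 pairs of genes had a median Pearson r of 0.06 (range -0.58 to 0.67), with 16 pairs positive. Over the 11 WT libraries the median was 0.68 (range 0.36 to 0.93), and all 28 pairs were positive. The WT libraries include the ones that chose the genes, so positive values there follow from the choice, and the genotypes were not compared. In G793A libraries the highest pair was Pla2g4e with Usp2 (r = 0.67), followed by Brme1 with Pla2g4e (r = 0.62), and the lowest was Spink8 with Brme1 (r = -0.58).

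**Figure D4:**
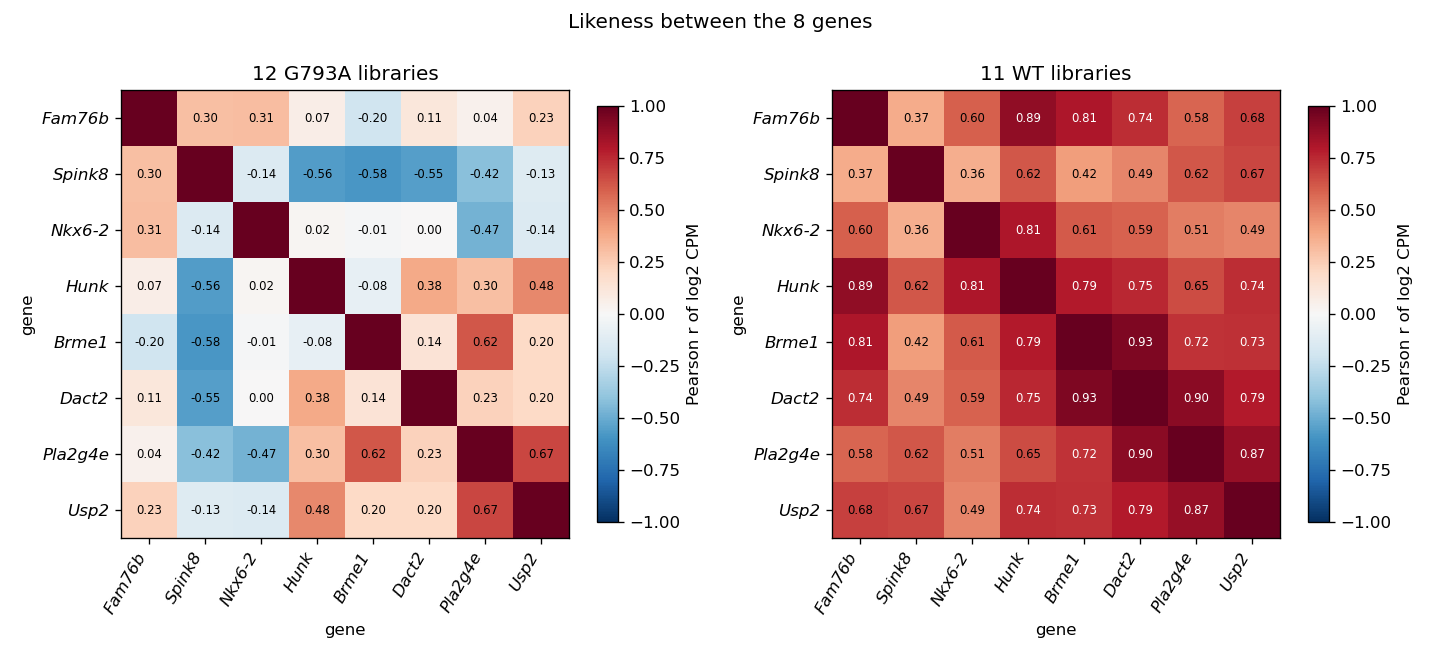
Pearson r of log2 CPM between each pair of the 8 genes over the 12 G793A libraries (left) and the 11 WT libraries (right), with the gene on both axes and r as colour and number. The left panel mixes signs around a median of 0.06, and all pairs in the right panel are positive with a median of 0.68.

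For each gene, the most alike of 13954 other genes over the 12 G793A libraries were also sought, as a description over libraries of 3 diets. Usp2 was most like Kdm5b (Pearson r = 0.96, Spearman rho = 0.96), and r was 0.93 without the 2 libraries farthest from the median. Pla2g4e was most like Daam1 (r = 0.94, rho = 0.97, and 0.94 without those libraries), followed by Prox1 (r = 0.94). Hunk was most like Magi1 (r = 0.92, rho = 0.77, and 0.84 without them). Spink8 was most like Gltp (r = 0.89, rho = 0.89, and 0.76), Nkx6-2 like Stc1 (r = 0.88, rho = 0.73, and 0.50), and Dact2 like Atg16l1 (r = 0.88, rho = 0.79, and 0.84). Fam76b was most like Frrs1 (r = 0.86, rho = 0.69, and 0.71) and Brme1 like Gab3 (r = 0.83, rho = 0.71, and 0.66). In the 11 WT libraries these pairs had r of 0.35 for Usp2, 0.34 for Pla2g4e, 0.34 for Hunk, -0.52 for Spink8, -0.01 for Nkx6-2, 0.33 for Dact2, 0.02 for Fam76b and -0.03 for Brme1. Each partner was picked as the highest r over the G793A libraries, so a lower r in WT libraries follows from the choice and nothing is read from it.

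The inhibitors were given at different doses, so their values stand side by side and were not compared. In WT mice, Fam76b, Nkx6-2, Hunk, Brme1 and Dact2 had the larger log2 fold change with PLX5622 at 1200 mg/kg, and Spink8, Pla2g4e and Usp2 with PLX3397 at 290 mg/kg, which is the division by which they were chosen. In G793A mice, Hunk stood at 0.28 with PLX5622 and 0.11 with PLX3397, and Pla2g4e at 0.39 and 0.36. Spink8 stood at -0.30 with PLX5622 and -0.20 with PLX3397, and Usp2 at 0.13 with both.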

How the data were processed

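Brain RNA-seq libraries were quantified by the authors, who deposited estimated counts (expected counts) per gene symbol and a table of variance-stabilised values on a log2 scale. Per the submitters' processing notes, the tools were kallisto 0.46.1, FastQC 0.11.9 and DESeq2 1.26.0 with the build GRCm39. How transcripts were summed to genes was not given in the sources used here. Of the deposited count values, 45.3% were not whole (tolerance 1e-06), and they were rounded. An entry with a blank name was left out, which held 0.0083% to 0.0151% of each library. Totals per library ran from 26.3 M to 48.2 M.

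Counts were tested in R 4.3.3 with edgeR 4.0.16, using TMM scaling and filterByExpr (minimum count 10, minimum total 15), which left 16209 genes. A robust quasi-likelihood fit covered the 23 libraries, with groups as terms. Two-sided p-values were adjusted over all genes by Benjamini and Hochberg's method, and the threshold was an adjusted p of 0.05. The common biological coefficient of variation was 0.0998. Each adjusted p printed comes from this edgeR fit unless another tool is named. CPM values are scaled by TMM, and log2 CPM for correlations used a prior count of 2. Alternatives used limma 3.58.1 and DESeq2 1.42.0. The steps were tested on simulated data.

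The 8 genes and all gene lists were chosen with earlier results of these data known. The naming rule took the 8 genes, Csf1r, up to 4 genes per list by smallest p in the comparisons of G793A groups, the 3 genes most like each of the 8 among those at a mean of 1 CPM or more, and the genes next to the thresholds. Dbp and Fam76a fell outside it. Transcript length and GC content were matched by symbol for 98.2% of genes tested. Same-numbered replicates of different groups were not paired: the median correlation of their residuals was 0.00553 over 55 pairs, against 0.0015 over 165 others. Libraries of 1 group were no duplicates by their counts (chi-square per degree of freedom 6.06 to 76.7). Positions are given on the promoter table's build only.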

Additional observations from a re-analysis of the deposited data

Results flagged for a closer look

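The highest and the lowest library of each group of 4 were set against the rest with Dixon's criterion, over 45 pairs of a gene and a group. Chance alone singles out about 5% of groups. Spink8 in replicate 3 of WT mice on PLX5622 stood at 1.13 CPM, below the other libraries of that group at 2.56 to 2.69 CPM. Csf1r in replicate 2 of G793A mice on PLX5622 stood at 58.8 CPM, below the others at 74.2 to 77.3 CPM, and this library also held Cbln3 at 220.54 CPM. Csf1r in replicate 3 of the G793A controls stood at 88.4 CPM, above the others at 78.5 to 79.8 CPM, and this library had the steepest slope along transcript length (-0.1036). The part of these library traits in the values was not tested.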

How the results depend on the processing

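Of the alternatives, those without the libraries that held cerebellar transcripts or high Npas4 were chosen after seeing the data. Of the recomputed log2 fold changes of the 8 genes, 847 were tallied as the same, 28 changed sign, 9 moved by more than the spread and 4 newly passed. The same meant an unchanged direction and call. For WT mice on an inhibitor against WT controls it meant an unchanged direction and a move below the spread. Calls of the 8 genes were not followed in those WT comparisons. Counts of genes past the threshold moved in these cases. In G793A mice on PLX3397 against G793A controls (1 gene), DESeq2 gave 28, limma on the variance-stabilised values 0, the pair of groups alone 0, and leaving out a library 0 to 23. In G793A mice on PLX5622 against G793A controls (0 genes), DESeq2 gave 313 and leaving out a library 0 to 980, the highest without replicate 2 of the G793A controls. In G793A controls against WT controls (0 genes, and 0 with DESeq2), leaving out a library gave 0 to 375, the highest without the same replicate. WT mice on PLX3397 against G793A controls had 1216, with DESeq2 1928, the pair alone 233, without high Npas4 395, and leaving out a library 247 to 2958. WT mice on PLX5622 against G793A controls had 424, with DESeq2 885, the pair alone 202, and leaving out a library 204 to 2027. The comparisons of WT mice with WT controls had 181 to 216 (of 247) and 220 to 278 (of 269) in both directions without a library, nearly all of them lower. Their higher calls moved more, from 2 to 13 (of 6) with PLX3397 and from 2 to 21 (of 12) with PLX5622 without a library. With only the groups compared they were 13 and 17, and with PLX5622 they were 7 with no filter and 22 without cerebellar transcripts. The cause was not tested, and DESeq2 called none of the 8 genes where they were tested.

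Signs turned only for log2 fold changes near 0. With PLX3397 in G793A mice, Nkx6-2 was 0.027 and Dact2 -0.0182 without the high Npas4 libraries, and without a library Nkx6-2 ran from -0.17 to 0.0262, Hunk from -0.0084 to 0.22 and Dact2 from -0.0395 to 0.0947. With PLX5622 in G793A mice, Dact2 was 0.068 with the length and GC trend removed, 0.0174 on variance-stabilised values, 0.0389 without cerebellar transcripts and 0.0383 without high Npas4, and without a library Fam76b ran from -0.0761 to 0.15, Nkx6-2 from -0.0811 to 0.0827 and Dact2 from -0.0821 to 0.0573. In WT mice on PLX3397 against G793A controls, without a library, Hunk ran from -0.0458 to 0.17 and Dact2 from -0.0531 to 0.081. The variance-stabilised scale shrinks low genes, and there G793A controls exceeded WT controls by 0.24 for Fam76b and 0.28 for Spink8.

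With replicate number as a block, the counts were 1, 0, 0, 214, 249, 1045 and 368 in the order G793A mice on PLX3397 and on PLX5622 against G793A controls, G793A controls, WT mice on PLX3397 and on PLX5622 against WT controls, and WT mice on PLX3397 and on PLX5622 against G793A controls. Higher calls with the block were 4 (of 6) with PLX3397 and 7 (of 12) with PLX5622 in WT mice against WT controls. Outside these WT comparisons the block changed no call of the 8 genes. The 3 WT controls limit the precision of every difference from them.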
